A study of Mus musculus with 4 samples.

Results

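The 9 tubulin genes described here are 3 alpha-tubulin genes, Tuba1a, Tuba1b and Tuba4a, and 6 beta-tubulin genes, Tubb2a, Tubb2b, Tubb3, Tubb4a, Tubb4b and Tubb5. They were taken by name, with the gene identifiers of the deposited tables matched to the symbols of the GENCODE M21 mouse annotation, and are 9 of the 52636 genes in those tables. All 9 were detected in both libraries. The study pulled down RNA bound to YTHDF2, a reader of N6-methyladenosine in RNA, from the hippocampus of C57BL/6 mice at postnatal day 40. It comprised 2 YTHDF2 immunoprecipitation libraries, which were not analysed here, and 2 input libraries, in which the RNA of the tissue was sequenced without the pull-down. The tissue was lysed in the buffer of a RIP kit and the RNA was taken up in Trizol. All libraries are labelled wild type, and the labels name no transgene, deletion or drug treatment.

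Tubulin is a dimer of 1 alpha and 1 beta chain, and the dimers join head to tail into the protofilaments of microtubules, which give axons and dendrites their shape and serve as tracks for kinesin and dynein. Mammals carry several genes for each chain, the isotypes, whose products are nearly alike over the folded core and differ mainly in the acidic carboxy-terminal tail, where polyglutamylation and other modifications are added and where motors and severing enzymes bind. Tubulin also controls its own messenger RNA: when free dimers are in excess, TTC5 recognises the first residues of the nascent chain on the ribosome and the message is degraded.

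The ends of the coding sequences carry these features, and the first 24 bases are shown here because the opening codons encode the residues that TTC5 reads. They are given 5′ to 3′ on the coding strand, from GENCODE M21 transcripts on GRCm38, with the first 4 codons in capitals.
Tuba1a: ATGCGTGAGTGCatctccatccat
Tuba1b: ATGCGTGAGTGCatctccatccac
Tuba4a: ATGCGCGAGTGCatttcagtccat
Tubb2a: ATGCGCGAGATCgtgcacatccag
Tubb2b: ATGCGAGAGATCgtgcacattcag
Tubb3: ATGAGGGAGATCgtgcacatccag
Tubb4a: ATGCGGGAAATCgtgcacctgcaa
Tubb4b: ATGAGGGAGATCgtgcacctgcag
Tubb5: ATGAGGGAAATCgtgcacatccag
The fourth codon was TGC, for cysteine, in all 3 alpha genes and ATC, for isoleucine, in all 6 beta genes. Codons 2 and 3 varied among the members only between synonymous forms. All 9 main transcripts had 4 exons, but the first coding exon held 57 bases of coding sequence in every beta gene and 3 bases, the start codon alone, in every alpha gene.

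The last 75 bases of the coding sequences of Tuba4a and the 6 beta genes are shown next because they encode the tail by which the isotypes differ, and because they show where reads can be told apart. Capitals mark bases that lie in no 31-base stretch found in a transcript of any other gene in the deposited tables. Lower case marks bases that a short read could share with another gene. The stretches lie in the last coding exon, on GRCm38 at chr1:75215622-75215696 for Tuba4a, chr13:34074468-34074542 for Tubb2a, chr13:34127471-34127545 for Tubb2b, chr17:57080690-57080764 for Tubb4a, chr2:25222308-25222382 for Tubb4b and chr17:35834982-35835056 for Tubb5, all on the minus strand, and at chr8:123421608-123421682 on the plus strand for Tubb3.
Tuba4a: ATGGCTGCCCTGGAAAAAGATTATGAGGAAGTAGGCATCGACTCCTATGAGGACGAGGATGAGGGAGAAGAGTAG
Tubb2a: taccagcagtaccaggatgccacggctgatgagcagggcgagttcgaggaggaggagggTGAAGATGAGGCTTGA
Tubb2b: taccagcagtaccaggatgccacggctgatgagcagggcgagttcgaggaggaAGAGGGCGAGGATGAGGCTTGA
Tubb3: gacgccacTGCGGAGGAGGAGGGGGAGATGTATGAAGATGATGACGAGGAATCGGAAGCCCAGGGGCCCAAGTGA
Tubb4a: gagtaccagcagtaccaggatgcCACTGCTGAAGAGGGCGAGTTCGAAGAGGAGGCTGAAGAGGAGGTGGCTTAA
Tubb4b: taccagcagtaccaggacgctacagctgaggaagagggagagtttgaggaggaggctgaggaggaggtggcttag
Tubb5: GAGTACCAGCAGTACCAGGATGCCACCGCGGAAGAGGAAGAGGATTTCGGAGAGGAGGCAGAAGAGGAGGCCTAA
Among the stretches shown, Tubb4b had no base of its own, whereas Tuba4a and Tubb5 were distinct over all 75. Tubb2a had 16 distinct bases, Tubb2b 22, Tubb4a 52 and Tubb3 67. Many alpha-tubulins end on a tyrosine that vasohibins remove and tubulin tyrosine ligase puts back. Before its stop codon Tuba4a ends on GAG, so its gene encodes no terminal tyrosine.

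The input libraries held 3334451 and 2563069 counts over all genes and are called the deeper and the shallower library. The name of 1 count column matches no replicate number of the labels. Whether separate animals gave the inputs is not stated, so every SD below is over n = 2 libraries and may be technical. There is 1 group, and no test between groups was possible. The tissue label was set against cell type markers, as summed counts per 1000000 gene counts (CPM) in the deeper and the shallower library. Neuron markers summed to 2995 and 2843 CPM, markers of pyramidal and granule cells to 2542 and 2915 CPM, oligodendrocyte markers to 3322 and 3360 CPM and astrocyte markers to 5663 and 4287 CPM. Choroid plexus markers summed to 2.1 and 2.7 CPM, with Folr1 at 0 in both libraries. Immature neuron markers summed to 114 and 108 CPM. These are libraries of whole tissue, so no tubulin count is assigned to a cell type, and more cells of a type cannot be told apart from more RNA per cell. The astrocyte sum differed most between the libraries in CPM. Most of that sum was Slc1a2, with 17596 counts in the deeper library and 9995 in the shallower one. Slc1a2 and Aqp4 had a higher CPM in the deeper library, whereas Gfap and Aldh1l1 had a lower one. The part of the astrocyte sum in the tubulin values was not tested. The word neuronal therefore names the genes and was not tested as a property of these counts.

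The 9 genes together took 2726 CPM of the deeper library and 2995 CPM of the shallower one, which is 0.27% and 0.30% of all gene counts. Among the 14797 nuclear protein-coding genes with a count, ranked by CPM with no correction for length, the members lay between the 91.1st percentile for Tubb4b and the 99.2nd for Tubb4a, which stood at rank 111. All 9 were thus among the abundant messages of the tissue, and even the least covered had 353 counts. For Tubb4b the exact Poisson interval at 95% ran from 115 to 139.5 CPM in the deeper library and from 124 to 153 CPM in the shallower one. Such intervals cover counting error only, since reads copied by PCR are not independent molecules.

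Tuba1a encodes the main alpha chain of developing and postmitotic neurons and is mutated in human lissencephaly. It had 1548 counts in the deeper library and 1331 in the shallower one, or 464 and 519 CPM, with a mean of 492 ± 38.9 CPM (SD, n = 2). Tuba1b, a broadly expressed alpha gene beside it on chromosome 15, had 703 counts in the deeper library and 545 in the shallower one, or 211 and 213 CPM, with a mean of 212 ± 1.28 CPM. Tuba4a, a gene of mature tissue that has been linked in humans to amyotrophic lateral sclerosis, had 984 counts in the deeper library and 866 in the shallower one, or 295 and 338 CPM, with a mean of 316 ± 30.2 CPM. All 3 alpha genes had a higher CPM in the shallower library, Tuba1b by less than its counting interval. The alpha genes summed to 1020.0 ± 70.5 CPM.

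Tubb4a, the beta gene that is prominent in myelinating oligodendrocytes and whose mutation causes a human leukodystrophy, had the highest count of the family. It had 2056 counts in the deeper library and 1561 in the shallower one, or 617 and 609 CPM, with a mean of 613 ± 5.34 CPM, and was the only member with a higher CPM in the deeper library. Tubb2a, which is abundant in mature brain, had 1263 counts in the deeper library and 1180 in the shallower one, or 379 and 460.4 CPM, with a mean of 419.6 ± 57.7 CPM, the widest SD of the 9. Tubb2b, its neighbour on chromosome 13 and a gene of migrating neurons that is mutated in human polymicrogyria, had 542 counts in the deeper library and 519 in the shallower one, or 163 and 202 CPM, with a mean of 183 ± 28.2 CPM.

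Tubb3, whose product is the class of beta-tubulin used as a marker of neurons, had 457 counts in the deeper library and 427 in the shallower one, or 137 and 167 CPM, with a mean of 152 ± 20.9 CPM. Tubb5, a widely expressed isotype also made by dividing cells, had 1115 counts in the deeper library and 895 in the shallower one, or 334 and 349 CPM, with a mean of 342 ± 10.5 CPM. Tubb4b, another widely expressed isotype that is needed in cilia, had 423 counts in the deeper library and 353 in the shallower one, or 127 and 138 CPM, with a mean of 132 ± 7.68 CPM. For Tubb2a, Tubb2b and Tubb3 the Poisson intervals of the 2 libraries did not overlap in CPM, nor did those of Tuba1a and Tuba4a. For Tuba1b, Tubb4a, Tubb4b and Tubb5 they did. The share of all genes without such overlap was not computed. CPM does not correct for differences in composition between the libraries. Over all genes that averaged 20 CPM or more, the median log2 CPM ratio of the deeper over the shallower library was -0.10. The lack of overlap is therefore not read as a trait of these members. The beta genes summed to 1841 ± 120 CPM.

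Genes of different length are compared only per kilobase, and here the length decided much of the order. On the authors' FPKM scale (CPM per kilobase), which divides by the mean length of a gene's annotated transcripts for 8 of the members, Tuba1a stood alone with 465 ± 36.8 FPKM. Tubb4a at 275 ± 2.40, Tuba4a at 271 ± 25.9, Tubb5 at 268 ± 8.21 and Tubb2a at 261 ± 35.8 FPKM followed, and no neighbours among these 4 differed beyond the spread of the libraries. Tuba1b came next with 187 ± 1.13 FPKM and differed from both of its neighbours in both libraries. Tubb2b at 139.8 ± 21.6, Tubb3 at 115 ± 15.8 and Tubb4b at 109 ± 6.32 FPKM closed the order, each overlapping the next. By this measure Tuba1a supplied 22.2% ± 0.173 of the tubulin sum and Tubb4b 5.21% ± 0.0696.

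The lengths behind these values differ from those of the full coding transcripts. For Tuba1a the authors' values correspond to 1058 bases, whereas GENCODE M21 lists 1 transcript of 1803 bases, and it was the only member whose length was not the mean of its M21 transcripts within 1 base. For Tuba4a they correspond to 1166 bases, a mean over 8 transcripts of which the main coding one has 2840. Tubb5 was divided by 1275 bases against 2649 in its main transcript. Tubb2a and Tubb4a, with 1 transcript each, had the same length on both scales.

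When counts were divided by the length of the main coding transcript instead, 3 genes shared the top. Tubb4a averaged 275 ± 2.40, Tuba1a 273 ± 21.6 and Tubb2a 261 ± 35.8 CPM per kilobase, and the ranges of these neighbours overlapped. A step down to 129 ± 3.95 for Tubb5 followed, then 121 ± 0.733 for Tuba1b and 111 ± 10.7 for Tuba4a, which stood in that order in both libraries on this scale. Tubb2b at 83.6 ± 12.9, Tubb4b at 82.8 ± 4.81 and Tubb3 at 81.3 ± 11.2 CPM per kilobase overlapped one another. On this scale Tubb4a held 19.4% of the tubulin sum, Tuba1a 19.2% and Tubb2a 18.3%, against 13.2%, 22.2% and 12.4% by FPKM, while Tuba4a held 7.85% against 13%. The lead of Tuba1a over every other member was seen with the authors' length and not with the main transcript. With the longest curated RefSeq transcript as length, Tuba1a at 309 ± 24.5 and Tubb4a at 299 ± 2.61 CPM per kilobase overlapped at the top, and Tuba4a at 136 ± 13 and Tuba1b at 135 ± 0.817 stood above Tubb5 at 129 ± 3.96 on the mean.

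**Figure D1:**
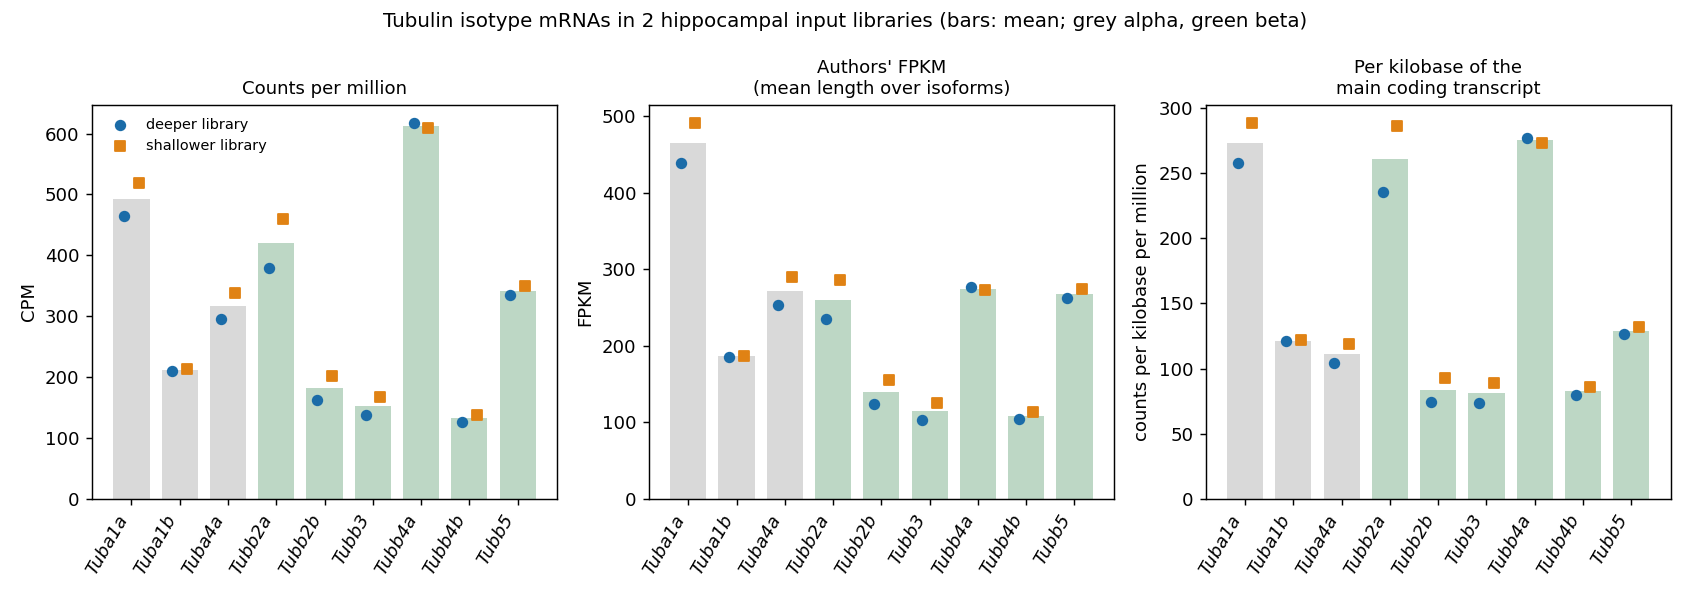
Level of each tubulin gene in the deeper library (circles) and the shallower library (squares), with bars at the mean of both and alpha genes in grey and beta genes in green. The left panel gives CPM, the middle panel the authors' FPKM, where Tuba1a leads at 465, and the right panel CPM per kilobase of the main coding transcript, where Tubb4a, Tuba1a and Tubb2a lie between 261 and 275.

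Alpha and beta chains enter the dimer in equal number, which makes the ratio of their messages of interest. Summed per length by FPKM, the 6 beta genes were 1.26 times the 3 alpha genes in the deeper library and 1.27 times in the shallower one. With main transcript lengths the ratio was 1.80 ± 0.0135. With the longest curated RefSeq transcript of each gene it was 1.64 ± 0.0101. With the counts as deposited, beta messages exceeded alpha messages on each of these scales and in both libraries. At the authors' lengths, but not at the other lengths, the direction depended on where the counts of pseudogene copies belong. With each copy's counts added to the closest member, beta over alpha was 0.965 in the deeper library and 0.949 in the shallower one at the authors' lengths, 1.29 and 1.27 with main transcripts, and 1.19 and 1.17 with RefSeq transcripts. Tuba1c, an alpha gene outside the 9, averaged 40.7 ± 3.53 FPKM.

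The library ratio of each member was taken as the deeper over the shallower library on the log2(CPM + 0.5) scale with TMM factors, which correct for differences in composition. The binomial intervals given with it cover counting error only. Tubb4a stood highest at 0.16, with a binomial 95% interval of 0.07 to 0.26, and Tuba1b followed at 0.13 (-0.03 to 0.30). Tubb2b stood lowest at -0.17 (-0.35 to 0.00), followed by Tubb2a at -0.14 (-0.25 to -0.02) and Tubb3 at -0.14 (-0.33 to 0.06). The intervals of Tubb4a and Tubb2a excluded 0, and those of the other 7 members did not. The share of all genes whose interval excluded 0 was not computed. Over 12504 genes the libraries differed beyond counting error (chi-square per degree of freedom 11.6), so this sets neither gene apart. The others were Tubb5 at 0.08, Tubb4b at 0.03, Tuba1a at -0.02 and Tuba4a at -0.05.

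No member was 1.5-fold apart between the libraries (0 of 9), where, of the 6915 genes that averaged 20 CPM or more, 8.27% were higher by that fold in the deeper library, 7.33% were lower and 15.6% lay either way. At 2-fold the 0 of 9 members follows from the 1.5-fold result. Of those 6915 genes, 1.98% were higher by 2-fold, 1.95% lower and 3.93% either. The widest member ratio was 1.13-fold. The median absolute log2 ratio was 0.13 over the members and 0.26 over the 6915 genes, most of which have fewer counts than the members, and fewer counts carry more counting error. The members' median ratio was -0.02, with 5 below 0 and 4 above, and that of all genes was 0.04. The signs followed the scaling: 1 member, Tubb4a, lay above 0 without TMM factors, 6 with DESeq2 size factors and 8 once the trend on GC content was removed. Tubb4a lay above 0 and Tubb2b below 0 under each of these scalings, whereas Tubb2a lay at 0.01 once the GC trend was removed. The size of the Tubb4a ratio moved too, to 0.02 without TMM factors and 0.35 once the GC trend was removed.

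**Figure D2:**
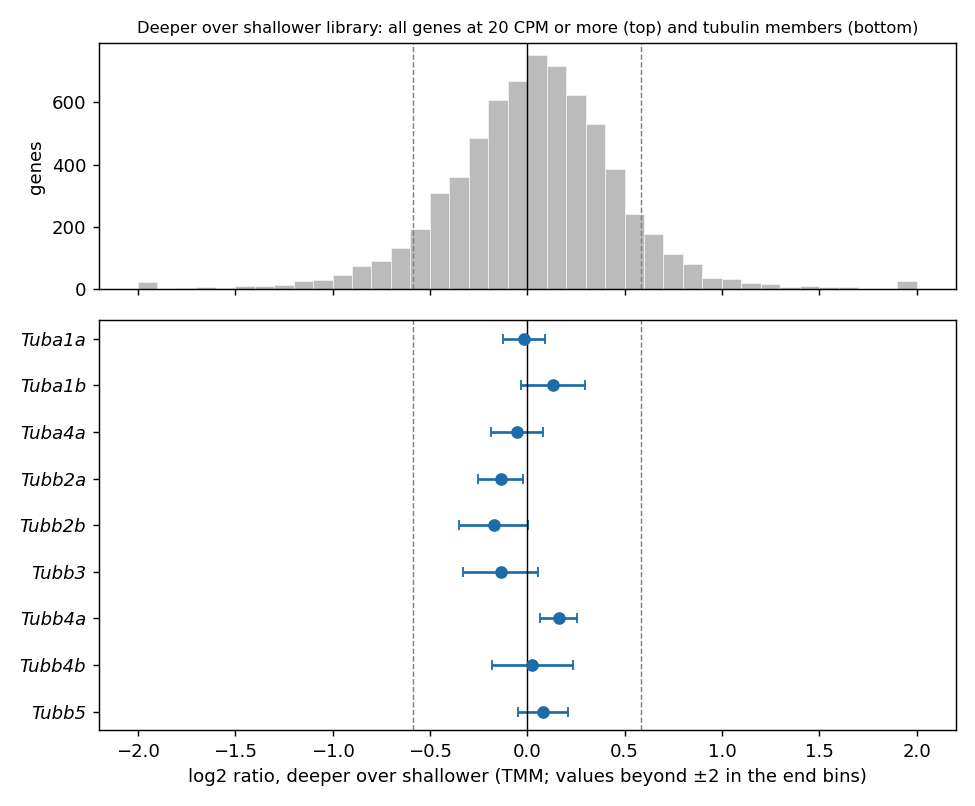
Log2 ratio of the deeper over the shallower library. The upper panel is a histogram of 6915 genes with at least 20 CPM (values beyond 2 collected in the end bins). The lower panel gives each tubulin gene with its binomial 95% interval, which covers counting error only. Dashed lines mark 1.5-fold, which no tubulin gene passed.

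The GC content of a transcript moved with this ratio over all genes. In 5 bins of transcripts by GC content, the median log2 ratio was 0.32 in the lowest bin and -0.16 in the highest. The members' main transcripts had 51.2% GC (Tubb2b) to 57.9% (Tubb3), above the median of 50.1% over 6312 transcripts of protein-coding genes with at least 20 CPM. Its part in the members' ratios was not tested beyond the removal of the trend.

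The coding sequences of the isotypes bear on how far their counts can be assigned. Tuba1a and Tuba1b were identical at 98.3% of aligned bases, with 23 differing bases over 1356, and Tubb2a and Tubb2b at 96.5%, with 47 differing bases over 1338. Tuba4a reached 84.7% with Tuba1a and 85.0% with Tuba1b. The remaining beta pairs lay between 81.4% for Tubb3 with Tubb5 and 84.6% for Tubb2a with Tubb5, and alpha with beta between 53.6% and 55.9%. The close pairs are chromosomal neighbours: on GRCm38, Tuba1b lies at chr15:98931425-98934565 and Tuba1a at chr15:98949837-98953703, and Tubb2a at chr13:34074274-34078007 and Tubb2b at chr13:34126748-34130466, all on the minus strand.

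**Figure D3:**
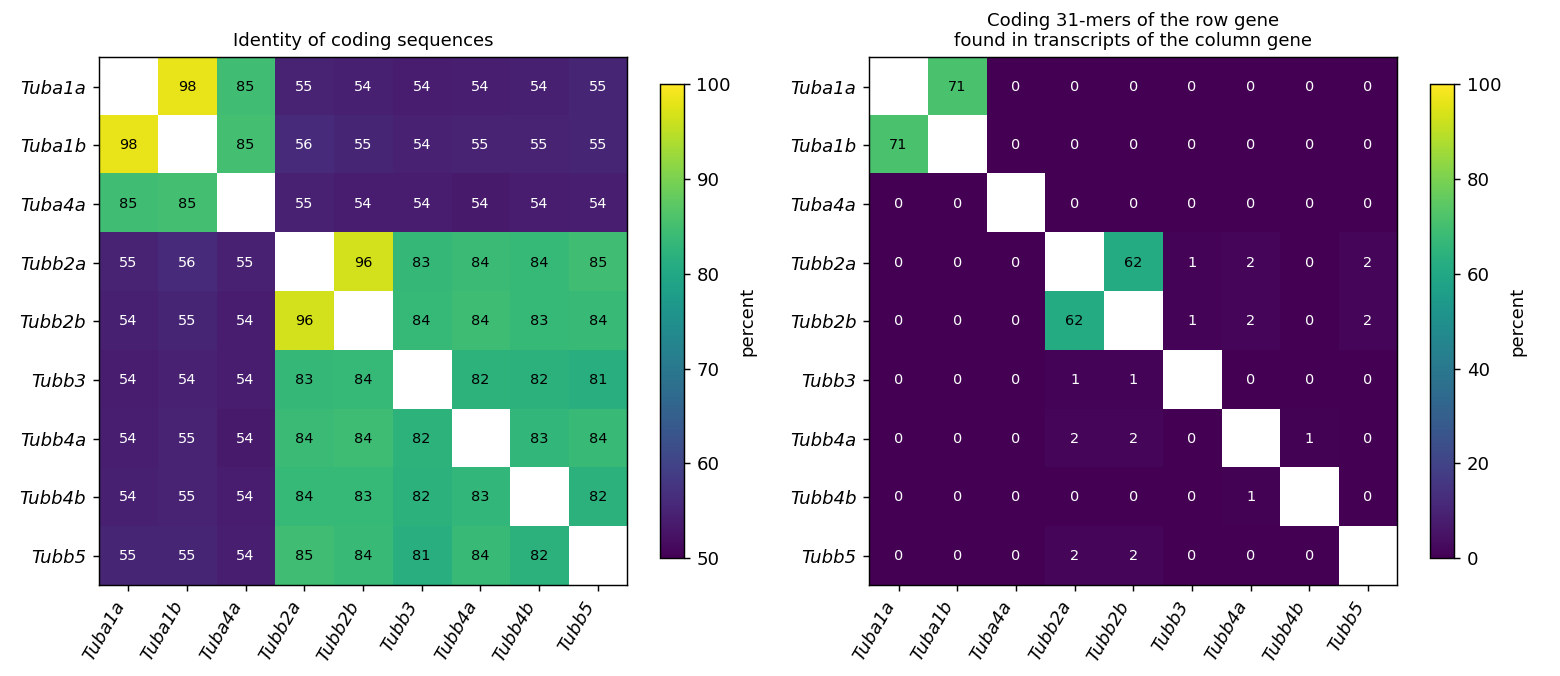
Percent identity of coding sequences between the 9 tubulin genes (left) and percent of the row gene's coding 31-base stretches that occur in transcripts of the column gene (right). Tuba1a with Tuba1b, at 98% and 71%, and Tubb2a with Tubb2b, at 96% and 62%, stand apart from all other pairs.

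Coding 31-base stretches were sought in the transcripts of every other gene in the deposited tables. Of those of Tuba1a 93.0% and of those of Tuba1b 97.2% occurred in at least 1 other gene. So did 68.1% of those of Tubb2a, 75.5% of Tubb2b and 77.4% of Tubb4b. For Tubb3, Tubb4a and Tubb5 the share was 4.54%, 2.91% and 3.60%, and for Tuba4a 8.05%. The 3′ untranslated regions separated the close pairs, with no shared stretch in Tuba1a, Tuba1b, Tubb2a or Tubb2b. In Tubb4b 77.1% of the 3′ untranslated region was shared, and there the other gene was Fam166a and not a pseudogene copy. In Tuba4a 98.9% of the 3′ untranslated region was shared, and there the other gene was Stk16, a kinase gene on the opposite strand that had 27 counts in the deeper library and 29 in the shallower one. Whether the authors' counting used strand is not given in the sources used here, so reads of Tuba4a and Stk16 in that overlap are uncertain. Fam166a, on the opposite strand over the 3′ end of Tubb4b, and Gm20388, a gene of the same strand over Tubb3, had 0 counts in both libraries. With stretches of 100 bases, 50% of the whole main transcript of Tuba1a, 65.6% of Tuba1b, 46.7% of Tuba4a, 36.9% of Tubb2a, 27.7% of Tubb2b and 30.6% of Tubb4b was shared, and none of Tubb3, Tubb4a or Tubb5. By this count Tubb3, Tubb4a and Tubb5 can exchange few reads with a copy, whereas the split of counts between Tuba1a and Tuba1b, and their copies, is uncertain.

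Processed pseudogenes, intronless copies of messages put back into the genome, carried tubulin counts in these tables. Of 13 pseudogenes that shared at least 20% of their 31-base stretches with members, 8 had 10 or more counts in a library, and all 13 summed to 1725 counts in the deeper library and 1492 in the shallower one, 19.0% and 19.4% of the members' own counts. The copies closest to Tuba1b were the largest group: 7 pseudogenes with 1357 counts in the deeper library and 1214 in the shallower one, which is 193% and 223% of the counts of Tuba1b itself. They included Gm6682 with 321 and 243 counts, Gm14150 with 315 and 303, Gm3226 with 245 and 232, Gm3756 with 230 and 183, Gm17383 with 194 and 211, and Gm5620 with 47 and 36, each in the deeper and then the shallower library. Tubb4b-ps1 had 227 counts in the deeper library and 172 in the shallower one, and the 3 copies closest to Tubb4b together 54.1% and 48.7% of its counts. Tubb2a-ps2, closest to Tubb2b in sequence despite its name, had 134 counts in the deeper library and 106 in the shallower one. This copy held 47.2% of the coding 31-base stretches of Tubb2b and also 37.0% of those of Tubb2a. No pseudogene that shared 20% was closest to Tuba4a, Tubb2a, Tubb3, Tubb4a or Tubb5.

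**Figure D4:**
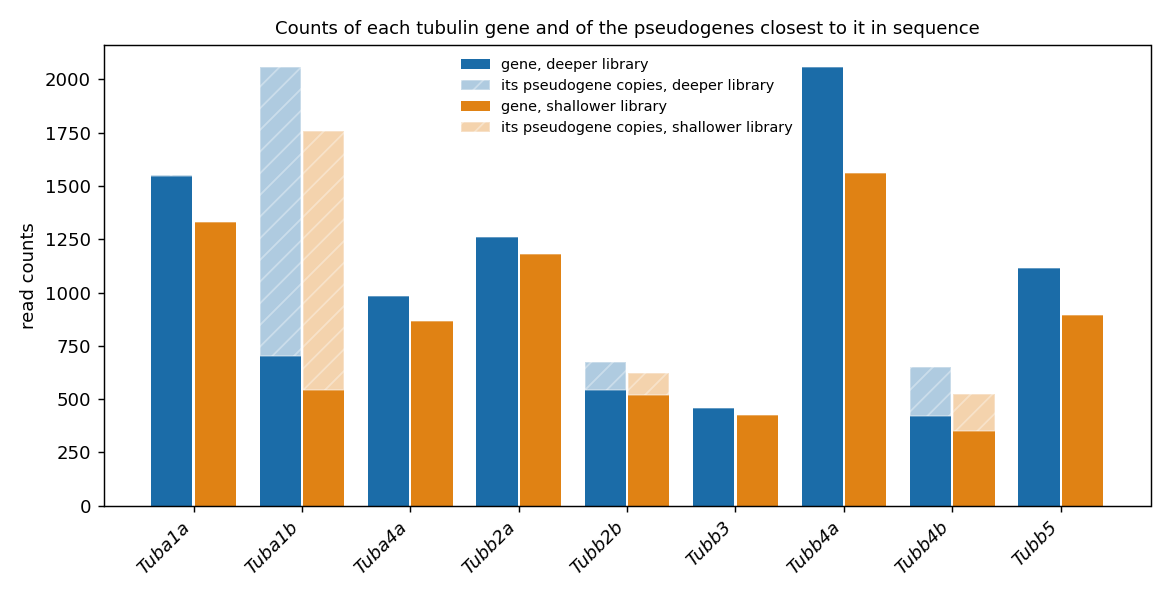
Read counts of each tubulin gene (solid) with the counts of the pseudogenes closest to it in sequence stacked above (hatched), for the deeper library (blue) and the shallower library (orange). The copies closest to Tuba1b among the 9 genes, with 1357 and 1214 counts, exceed the gene's own 703 and 545.

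Whether these counts came from pseudogene RNA or from reads of the parent message placed on a copy cannot be told apart from the tables. Adding the copies to Tuba1b gave 652 CPM in place of 212, to Tubb4b 200.2 in place of 132, and to Tubb2b 223 in place of 183. Per length Tuba1b then had the highest level of the 9, at 574 ± 42.7 CPM per kilobase with the authors' length against 466 ± 35.8 for Tuba1a, and also with main and RefSeq transcripts. That order rests on giving all counts of a copy to the closest of the 9 members, among which Tuba1c was not a candidate. Some copies were almost as close to Tuba1a: Gm17383 held 71.6% of the coding 31-base stretches of Tuba1a and 72.5% of those of Tuba1b. Sums over a parent group do not depend on the placement within it if each read was counted once. How reads with several placements were counted was not stated. The protein-coding gene Slc7a11, which held 16.7% of the coding 31-base stretches of Tuba1a, was left out of these sums. It had 191 counts in the deeper library and 107 in the shallower one. Tuba1a, Tuba1b, Tuba1c and 9 copies together had 3865 counts in the deeper library and 3309 in the shallower one, a mean of 1225 ± 93.3 CPM, of which the copies held 35.2% and 36.7%. Their log2 library ratio was -0.01 (95% interval -0.08 to 0.06). Tubb2a, Tubb2b and their copy had 1939 and 1805 counts and a ratio of -0.13 (-0.22 to -0.04), and Tubb4b with its copies 652 and 525 counts and a ratio of 0.08 (-0.09 to 0.25), in the deeper and then the shallower library. Gm49450, a readthrough gene over Tuba1a and Tuba1b, and Gm41396, antisense to Tuba1b, are annotated in GENCODE M21 but absent from the deposited tables. Neither was used here, also not in the sequence comparison.

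The genes nearest to the 3 members with the highest mean FPKM in log2(FPKM + 0.5) over both libraries were sought among 21781 nuclear protein-coding genes by Euclidean distance. Tuba1a, at 439 FPKM in the deeper library and 491 in the shallower one, lay nearest to Sparcl1, a secreted protein of astrocytes, at 432 and 494 FPKM (distance 0.0253), and to Ptms, at 436 and 504 FPKM (0.0381). Tubb4a lay nearest to Slc1a3, an astrocytic glutamate transporter, at 0.0346, and to Huwe1, a ubiquitin ligase, at 0.0394. Tuba4a lay nearest to Cplx1, a complexin of synaptic vesicle release, at 0.0855, and to Mllt11 at 0.101. With 2 libraries, this likeness describes a shared level on the FPKM scale, and the choice of the 3 members rests on the authors' lengths. Per kilobase of the main transcript Tuba1a had 257 CPM in the deeper library and 288 in the shallower one, and Tuba4a held rank 6 among the members.

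Other tubulin genes were scarce beside the 9. Of 11 listed, 7 had counts in both libraries and 4 had none (Tuba3a, Tuba3b, Tubal3 and Tubb1, the last the isotype of platelets), where a count of 0 allows up to 3 counts, or 0.900 CPM in the deeper library and 1.17 CPM in the shallower one. Together the 11 came to 119 ± 17.8 CPM, against 2861 ± 190.1 CPM for the 9. Apart from Tuba1c, the highest by FPKM were the gamma-tubulins Tubg1 and Tubg2, which nucleate microtubules, with 18 and 27 counts in the deeper library and 35 and 28 in the shallower one, and Tuba8, with 19 counts in the deeper library and 23 in the shallower one.

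New tubulin chains are folded by prefoldin, the ring chaperonin CCT and the tubulin cofactors before they pair. Of 21 genes of this path, 20 had counts in both libraries and 9 averaged at least 20 CPM, none of them 1.5-fold apart between the libraries. The highest by FPKM were Cct6a with 106 ± 9.08, Cct2 with 70.8 ± 3.04, Cct7 with 66.9 ± 7.22 and Tcp1 with 58.0 ± 1.29 FPKM, all subunits of the chaperonin. Per kilobase of the main transcript, Cct7 lay above Cct2, at 43.4 against 30.2 CPM. Cct6a had no value on that scale, so its lead is given by FPKM only. Its authors' length was 978 bases, against 2454 in its longest transcript. Tbca, a cofactor for beta-tubulin, had 9 counts in the deeper library and 0 in the shallower one.

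Of 27 genes whose products add or remove modifications of tubulin, 11 averaged at least 20 CPM, of which 1 was higher in the deeper library by 1.5-fold or more and 3 were lower by as much, where these shares over all 6915 genes were 8.27% and 7.33%. Sirt2, a deacetylase abundant in myelin, had 92.3 ± 4.92 FPKM and was the highest by FPKM and per main transcript. Agtpbp1, a deglutamylase that trims tubulin tails, had 83.9 ± 10.3 FPKM but 22.2 ± 2.73 CPM per kilobase of its main transcript, below Ttll7 at 26.7 ± 10.2 and Tpgs1 at 22.6 ± 4.42. Ttll7, a polyglutamylase of beta-tubulin, averaged 53.0 ± 20.3 FPKM, with 837 counts in the deeper library and 369 in the shallower one, a log2 ratio of 0.94. Tpgs1, a subunit of the polyglutamylase complex, averaged 43.3 ± 8.48 FPKM. The 3 lower in the deeper library were Ttll4 at -0.86 and Ttll5 at -0.59, both polyglutamylases, and Vash1, a vasohibin, at -0.62.

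Of the 9 listed genes of the gamma-tubulin complex and its partners, 4 averaged at least 20 CPM, of which Mzt1 was higher in the deeper library at a log2 ratio of 0.62 and Tubgcp6 and Tubgcp3 were lower at -0.75 and -0.80, with 15.6% of the 6915 genes as far apart either way. Tubgcp6 had 15.8 FPKM in the deeper library and 29.5 in the shallower one, and Mzt1 had 23.0 and 16.4 FPKM, so their order by FPKM differed between the libraries. Per kilobase of the main transcript Mzt1 averaged 19.9 ± 4.68 CPM and Tubgcp6 6.04 ± 2.59 CPM. Among 8 genes of the severing enzymes, 2 averaged at least 20 CPM and neither was 1.5-fold apart. Katnal1, of the katanin family, had 32.6 ± 2.62 FPKM. Of the genes of tubulin message autoregulation, Ttc5 had 28 counts in the deeper library and 47 in the shallower one, and Cnot11, a subunit of the CCR4-NOT deadenylase that is recruited by the TTC5 pathway, had 76 and 50 in the same order. Scaper, which links TTC5 to CCR4-NOT and was added after the data were seen because the list had misspelled its symbol, had 96 counts in the deeper library and 71 in the shallower one.

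YTHDF2 binds messages that carry N6-methyladenosine, which is placed at adenines in a short consensus. The letters GGACT, 1 form of that consensus, were counted on the sense strand of each main transcript. Tuba4a held 7, of which 5 lay in its 3′ untranslated region, Tubb3 and Tubb4b held 3 each, Tubb2a, Tubb2b and Tubb5 2 each, Tuba1a and Tubb4a 1 each, and Tuba1b 0. Over the 6312 transcripts of protein-coding genes with at least 20 CPM, 95.8% held the letters at a median of 1.01 per kilobase, against 2.46 per kilobase in Tuba4a, the highest of the members. A match of letters is not a methylation site, and no methylation or binding was measured in the libraries used here.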

How the data were processed

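The 2 hippocampal input libraries were analysed as deposited. Per the file headers, the authors deposited read counts and FPKM per gene; per the submitters' processing notes, BWA 0.7.12, MACS2 2.1.0 and HOMER were used with GRCm38. The read counter, the annotation, strand use and the treatment of reads with several placements were not stated in these sources, and multiple placement bears directly on paralogs. Libraries are named by depth. No value column was unused (0).

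CPM used all gene counts. Of the 52636 identifiers, 52403 matched GENCODE M21. FPKM gave back 1 whole-number length per gene in both libraries for 100% of 18734 genes. Library ratios are log2(CPM + 0.5) with TMM factors (edgeR 4.0.16, 0.951 and 1.05 for the deeper and the shallower library) from genes averaging 5 CPM or more, with exact binomial intervals, and were tested on simulated data. DESeq2 1.42.0 gave alternative size factors. Sequence comparisons used Python 3.11.15 and Biopython 1.88 on both strands; coding identity replaced the planned protein identity, as no protein table was used here. All members are named; of other lists, counts and the leading genes by FPKM are given. Some items are not reported here. The members and lists were chosen with earlier results of these data known. The libraries differed beyond counting error (chi-square per degree of freedom 11.6 over 12504 genes), so they were treated as separate.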

Additional observations from a re-analysis of the deposited data

How the results depend on the processing

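No paired analysis was possible because the immunoprecipitation libraries were not analysed here and only 1 group remained. The members' sum of 2861 CPM became 3880 with nuclear protein-coding counts alone as the total and 3411 CPM with pseudogene counts added, and lay between 2726 and 2995 CPM in single libraries. Beta over alpha per length, 1.26 by FPKM (1.26 to 1.27 in single libraries), became 1.80 with the longest transcript. For every member that was also the longest protein-coding transcript, so both settings are the same alternative. With curated RefSeq transcripts, a choice made after seeing the data, beta over alpha was 1.64. With pseudogene counts added, also chosen after seeing the data, it was 0.957 with the authors' lengths, which turns the direction, 1.28 with the longest protein-coding transcript and 1.18 with RefSeq transcripts. The median log2 ratio of -0.02 became -0.16 without TMM factors (all genes: -0.10) and 0.086 with the GC trend removed (all genes: 0.05). The number of members at least 1.5-fold apart stayed at 0 without TMM factors and with DESeq2 size factors. At 2-fold the number of 0 follows from that at 1.5-fold and is no further check. Of the 103 values for single members that an alternative other than a left-out library could move, 40 moved by more than the spread or the counting interval and 63 did not. Each member's share with the longest transcript enters these 103 values again as that with the longest protein-coding transcript. With 2 libraries of 1 group, no difference between conditions could be measured, and the depth supports no statement on genes with a few counts.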
